A study of Mus musculus with 2 samples.

Results

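The aminoacyl tRNA synthetases join each amino acid to its transfer RNA, the step that sets the genetic code before a ribosome reads it. Cells keep one set of these enzymes for the cytosol and another, also encoded in the nucleus, for the ribosomes of the mitochondrion. In the cytosol several synthetases are held in the multisynthetase complex by scaffold proteins, and the genes of many cytosolic synthetases are known targets of Atf4, the transcription factor that is translated when amino acids run short. The synthetase genes taken here were 36 of the 20250 protein-coding genes measured, chosen by name from the protein family and not by their values, with 20 cytosolic and 16 mitochondrial enzymes. *Gars* and *Kars* stand with the cytosolic set, although each supplies the mitochondrial enzyme as well.

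RNA was sequenced from 1 library of *Ebf1* -/- pre-pro-B cells and 1 library of *Rag2* -/- pro-B cells, both of C57BL/6 background and both cultured on OP-9 stromal cells with Il-7 at 5 ng/mL. The pre-pro-B cells, which lack the factor Ebf1 and stop before commitment to the B lineage, came from female embryonic liver and also received Scf and Flt3l, each at 10 ng/mL. The pro-B cells, which lack a recombinase subunit and stop before a rearranged receptor is made, came from adult male bone marrow and received neither. Cell type, genotype, sex, age, tissue and cytokines therefore differed together and cannot be told apart. With 1 library per cell type there was no replicate, so differences between the libraries were described by their size alone and no test was made.

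Levels are FPKM, fragments per kilobase of transcript, scaled to the size of the library, summed over the coding transcripts of a gene. Differences are log2 of (pro-B FPKM + 1) over (pre-pro-B FPKM + 1), positive where pro-B cells were higher, and a gene was counted as higher or lower from 1.5-fold on that scale. The background was the 10528 genes that reached 1 FPKM in either library, of which 20.1% were higher and 29.8% lower in pro-B cells, with a median log2 difference of -0.14.

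The libraries carried the markers of their labels. All 11 pro-B markers examined were higher in pro-B cells, their summed FPKM being 98.9 in pre-pro-B and 4122 in pro-B cells, and the sum of 7 progenitor markers was 1026 and 3.17. *Ebf1* was at 64.0 FPKM in the *Ebf1* -/- library and 273 in the other, and *Rag2* had 22.9 in the *Rag2* -/- library and 34.5 in the other, so neither targeted gene was at 0. Markers of other cells were also present. Those of myeloid cells summed to 708 in pre-pro-B and 10.6 in pro-B cells over 10 genes, with *Elane*, *Ctsg*, *Ms4a3*, *Lyz1* and *S100a9* at 0 in both, and those of T and NK cells summed to 129 and 6.51 over 9 genes, with 5 of them at 0 in pro-B cells. Of 12 stromal markers, 5 were higher and 2, *Pdgfrb* and *Thy1*, lower in pro-B cells, with *Dcn* and *Postn* at 0 in both. These summed to 26.3 in pre-pro-B cells, of which *Pdgfrb* made 15.9, and to 15.9 in pro-B cells, where *Fn1* was the highest at 5.16, and the part of such cells in the synthetase values was not tested.

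Of the 36 synthetases, 35 reached 1 FPKM in both libraries, the exception being *Yars2*, and the cytosolic set stood well above the mitochondrial set. The median FPKM of the cytosolic genes was 37.7 in pre-pro-B and 36.7 in pro-B cells, against 6.40 and 6.76 for the mitochondrial genes. Summed over the set, cytosolic mRNA came to 804 and 953 FPKM and mitochondrial mRNA to 152 and 167, so the cytosolic sum was 5.30 times the mitochondrial one in pre-pro-B and 5.70 times in pro-B cells. Without *Yars2* these were 5.57 and 5.70, and with non-coding transcripts added 5.30 and 5.44. The sets did not separate completely. In pre-pro-B cells 13 cytosolic genes lay above every mitochondrial gene, and 12 mitochondrial genes lay below every cytosolic one, and in pro-B cells these counts were 11 and 12. The order of the genes was alike in both libraries, with a Spearman rho of 0.95 and a Pearson r of 0.91 on the log2 scale over the 36 genes, points that share a library and a scaling. Over all 10528 background genes rho was 0.75.

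**Figure D1:**
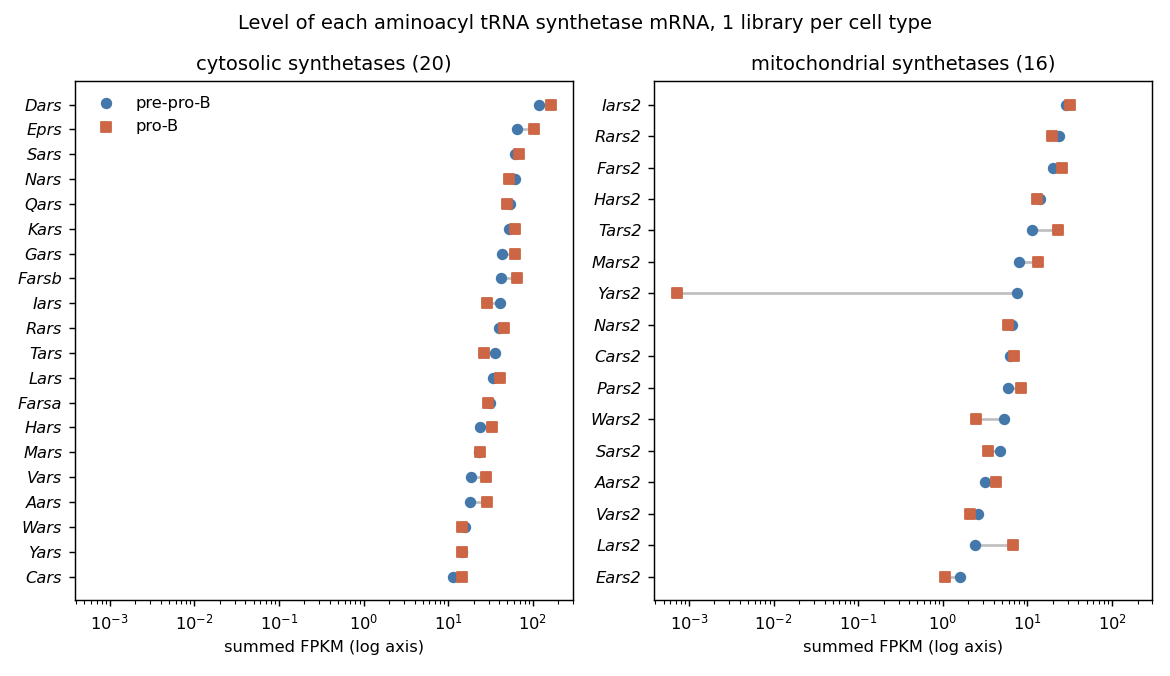
Summed FPKM (log axis) of the 20 cytosolic and 16 mitochondrial synthetase genes in the pre-pro-B (circles) and the pro-B library (squares), 1 library each, with a line joining the values of a gene. Most pairs of points nearly coincide, cytosolic genes lie between 11.4 and 162, and *Yars2* alone leaves the range in pro-B cells.

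Among the cytosolic genes, *Dars*, the aspartyl enzyme, was the highest in both libraries. It lies on chromosome 1 (mm9, 130260285 to 130313993), and its FPKM was 117 in pre-pro-B and 162 in pro-B cells, a log2 difference of 0.47. Its main transcript, NM_177445, carried 97.8% and 99.0% of that level, with an FPKM of 115 (Cuffdiff's 95% interval 8.06 to 222) and 161 (interval 12 to 310). The lowest cytosolic gene was *Cars*, the cysteinyl enzyme, with 11.4 in pre-pro-B cells, and *Yars*, the tyrosyl enzyme, with 14.5 in pro-B cells. Their values in the other library were 14.7 each. The main transcript of *Cars* had 10.2 (interval 0.134 to 20.9) and 14.3 (interval 0.563 to 28), and the single transcript of *Yars* had intervals of 1.28 to 49.8 and 1.14 to 49.4. This leaves *Cars*, *Yars* and the tryptophanyl *Wars* (15.6 and 14.5) hardly apart at the low end of the set.

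Of 20 cytosolic genes, 3 were higher by 1.5-fold in pro-B cells, a share near the background's 20.1%, and 0 were lower, against 29.8%. *Eprs*, a single protein that charges both glutamate and proline, was the one with the largest difference. Its FPKM was 65.3 (interval 7.16 to 206) in pre-pro-B and 104 (interval 5.40 to 315) in pro-B cells, a log2 difference of 0.66. *Aars*, the alanyl enzyme on chromosome 8 (mm9, 113557044 to 113581564), had 18.2 (interval 1.31 to 36.7) and 29.1 (interval 1.64 to 57.0), a log2 difference of 0.64. *Farsb*, the beta subunit of phenylalanyl tRNA synthetase, had 42.0 (interval 9.08 to 74.9) and 64.9 (interval 15.0 to 115), a log2 difference of 0.62. All 3 lay close to the 1.5-fold limit and depended on scaling. With the libraries rescaled to TPM, 0 cytosolic genes were higher and 1, *Iars*, was lower, and with a median-ratio scaling 5 were higher and 0 lower.

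The beta subunit was higher while its partner was not. *Farsa*, the alpha subunit of the same enzyme, was at 31.5 and 29.7 FPKM. The ratio of *Farsb* to *Farsa* mRNA was therefore 1.33 in pre-pro-B and 2.19 in pro-B cells, for subunits that the enzyme holds in equal number.

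Below the limit, 5 further cytosolic genes had log2 differences between 0.34 and 0.56. *Vars*, the valyl enzyme, had an FPKM of 18.5 and 27.8, and *Gars*, the glycyl enzyme, 43.3 and 62.2. *Hars*, the histidyl enzyme, had 23.8 and 33.1. The other 2 of these were *Dars* and *Cars*. Another group hardly differed. *Lars* (leucyl) had an FPKM of 33.8 and 40.4, *Kars* (lysyl) 52.8 and 61.4, *Rars* (arginyl) 39.5 and 45.3, *Sars* (seryl) 62.1 and 68.6, and *Mars* (methionyl) 22.9 and 24.0. The remaining genes, with *Farsa*, *Wars* and *Yars* among them, were below their pre-pro-B level. The smallest differences turned with scaling, *Mars* to -0.02 under TPM and *Yars* to 0.06 and *Farsa* to 0.00 under median-ratio scaling. *Qars* (glutaminyl) had 54.1 and 50.0, *Nars* (asparaginyl) 61.2 and 52.2, *Tars* (threonyl) 35.8 and 26.3, and *Iars* (isoleucyl) 40.7 and 28.6, the last with the largest decrease of the cytosolic set at a log2 difference of -0.49. For *Iars*, 11.3% of the 97-base stretches of its transcript matched elsewhere in mm9 with up to 2 mismatches, which makes its level less certain. No other synthetase had such a match.

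As a set, the cytosolic genes sat slightly above the bulk of the transcriptome. Their median log2 difference was 0.20, and 17 of 20 lay above the background median of -0.14. Under TPM the medians were 0.11 and -0.24, and under median-ratio scaling 0.29 and -0.06. Apart from the pseudocount such a scaling moves all genes alike, so it could not change the order of these medians. The share of summed FPKM that went to cytosolic synthetases was 0.259% in pre-pro-B and 0.282% in pro-B cells.

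The mitochondrial genes varied more among themselves. Their log2 differences ran from -3.09 to 1.17, or from -0.86 without *Yars2*, against -0.49 to 0.66 in the cytosolic set. By 1.5-fold, 3 of 16 were higher and 2 lower, or 1 lower without *Yars2*, against 20.1% and 29.8% of background genes. At 2-fold, which 12.2% of background genes passed upward and 19.1% downward, *Lars2* was higher and *Yars2* lower, so 2 synthetases passed. This count was 4 with a pseudocount of 0.1 or none, and 1 once the non-coding transcript of *Yars2* was added, as given further on. Their median log2 difference was -0.00, or 0.12 without *Yars2*, and 10 of 16 lay above the background median. At equal transcript length a lower FPKM rests on fewer reads, but the number of reads behind each value is unknown.

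*Lars2*, the mitochondrial leucyl enzyme on chromosome 9 (mm9, 123276058 to 123371782), showed the largest increase of all 36 genes. Its single transcript was at 2.41 FPKM (interval 0.0407 to 7.73) in the pre-pro-B library and at 6.67 (interval 0.336 to 18.8) in the pro-B library, a ratio of 2.77 and a log2 difference of 1.17. *Tars2*, the mitochondrial threonyl enzyme, followed with 11.4 and 22.9, a ratio of 2.01 and a log2 difference of 0.95. Its level was spread over 4 transcripts. The most abundant of these had 7.32 (interval 0.0750 to 17.2) and 11.4 (interval 0.0502 to 27.8), and on that transcript alone the log2 difference was 0.58, under the 1.5-fold limit. *Mars2*, the mitochondrial methionyl enzyme, had 7.94 (interval 0.877 to 15.0) and 13.5 (interval 2.07 to 24.8), a log2 difference of 0.69.

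*Wars2*, the mitochondrial tryptophanyl enzyme on chromosome 3 (mm9, 98944991 to 99043109), was lower in pro-B cells. Its FPKM was 5.34 (interval 0.108 to 11.2) in pre-pro-B and 2.49 (interval 0.0180 to 5.89) in pro-B cells, a ratio of 0.467 and a log2 difference of -0.86.

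Apart from *Yars2*, described further on, the remaining mitochondrial genes lay within 1.5-fold. *Iars2* (isoleucyl) was the highest of the set in both libraries, with an FPKM of 28.5 (interval 0.915 to 60.3) and 32.2 (interval 0.622 to 68.4). *Fars2* (phenylalanyl) had 20.04 and 25.5, *Rars2* (arginyl) 23.9 and 19.3, and *Hars2* (histidyl) 14.2 and 12.8. *Iars2*, *Fars2* and *Rars2* reached into the cytosolic range in both libraries, *Hars2* in pre-pro-B cells alone and *Tars2* in pro-B cells alone. *Pars2* (prolyl) had 5.84 and 8.47, *Aars2* (alanyl) 3.17 and 4.21, *Cars2* (cysteinyl) 6.24 and 6.85, and *Nars2* (asparaginyl) 6.57 and 5.96. *Sars2* (seryl) had 4.78 and 3.42, and *Vars2* (valyl) 2.58 and 2.09. The lowest in pre-pro-B cells was *Ears2*, the glutamyl enzyme, at 1.58 (interval 0 to 5.05), and it was at 1.07 (interval 0 to 3.53) in the pro-B library.

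**Figure D2:**
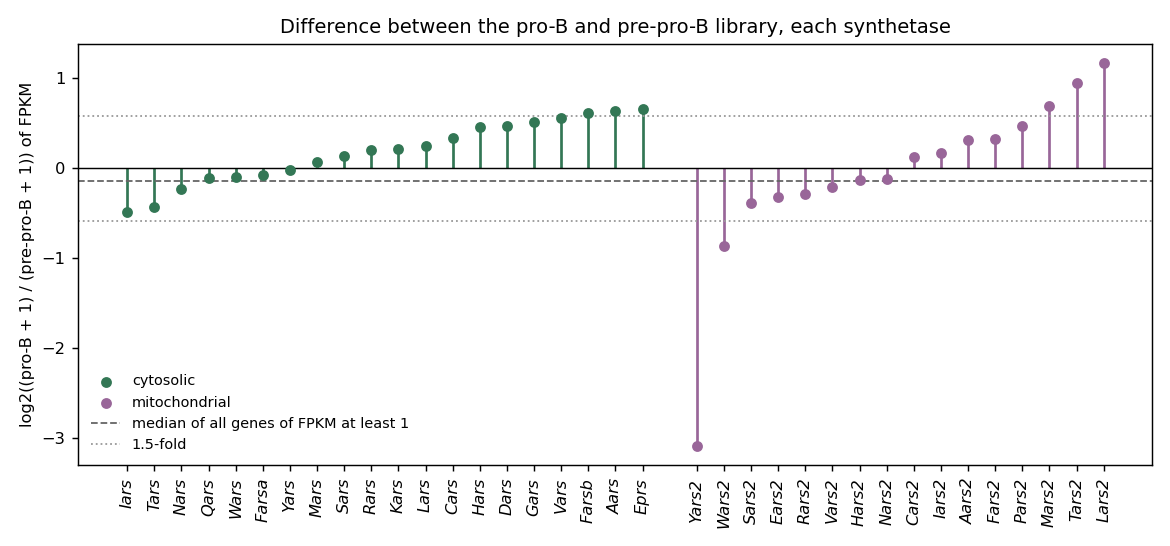
Log2 of (pro-B FPKM + 1) over (pre-pro-B FPKM + 1) for each synthetase, cytosolic genes to the left and mitochondrial genes to the right, with the 1.5-fold limits dotted and the median of all background genes (-0.14) dashed. The 20 cytosolic points stay between -0.49 and 0.66, whereas mitochondrial points reach from -3.09 for *Yars2* to 1.17 for *Lars2*.

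Cuffdiff's 95% intervals were wide throughout. The intervals of the most abundant transcript overlapped between the libraries for all 36 genes, so 0 were apart, against 4.83% of background genes. Those of *Yars2*, 0 to 17.8 in pre-pro-B and 0 to 0 in pro-B cells, met only at 0. None of the 10 synthetases with several coding transcripts changed its most abundant one, while 17.1% of 2046 such genes did. Both sets are too small to set these counts apart from the background shares.

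*Yars2*, the mitochondrial tyrosyl enzyme on the plus strand of chromosome 16 (mm9, 16303058 to 16309733), was the largest difference in the family, and it lay between transcripts rather than in the gene. The coding transcript NM_198246 was at 7.49 FPKM (interval 0 to 17.8) in the pre-pro-B library and at 0.000717 (interval 0 to 0) in the pro-B library. The non-coding transcript NR_038046 of the same gene was at 0.000103 (interval 0 to 0) and 7.91 (interval 0 to 19.1), in the same order. With both transcripts added, *Yars2* had 7.49 and 7.91, a ratio of 1.06 and a log2 difference of 0.07 in place of -3.09. Each library thus assigned nearly the whole gene to a single transcript, and a different one in each. Such a pass was counted where each kind of transcript reached 1 FPKM in one library and was under 0.01 in the other. These limits were set to the pattern of *Yars2*, so its own pass was fixed in advance. Of 271 genes with coding and non-coding transcripts, not filtered by level, 1, *Yars2*, passed from coding in pre-pro-B to non-coding in pro-B cells. By the same limits 0 passed in the other direction, and the count does not show how rare such a pass is.

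**Figure D3:**
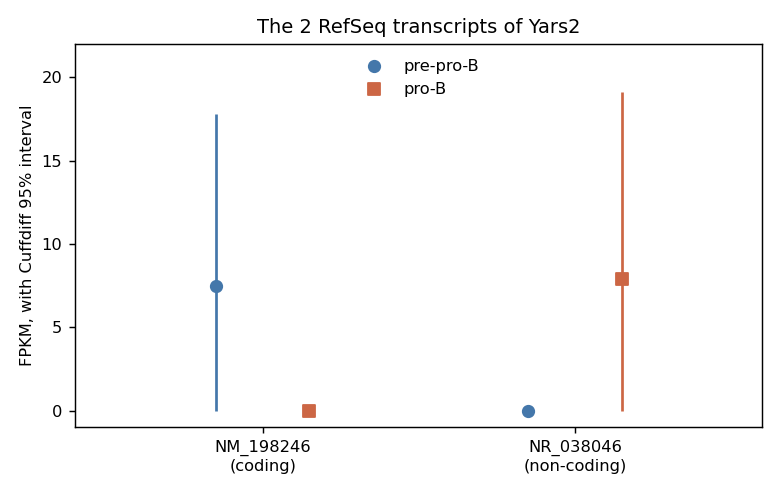
FPKM of the coding (NM_198246) and the non-coding (NR_038046) transcript of *Yars2* in the pre-pro-B (circles) and pro-B library (squares), with Cuffdiff's 95% intervals as vertical lines. The coding transcript stands at 7.49 in pre-pro-B cells alone and the non-coding one at 7.91 in pro-B cells alone.

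The transcripts differ by little. NM_198246 is 1587 bases long and NR_038046 is 1552, a difference of 35 bases. In the GENCODE annotation of mm9, the coding model of *Yars2* and a model marked for nonsense-mediated decay, each of 5 exons, differ in the start of 1 exon by the same 35 bases, at chr16:16306556-16306590. RefSeq and GENCODE models were matched here by that length alone. The stretch is shown because only reads that touch it or its junction can tell the transcripts apart, with the 35 bases that the shorter model omits in capitals and 12 genomic bases on each side in lower case (mm9, chr16:16306544-16306602, plus strand).
Yars2 alternative exon start: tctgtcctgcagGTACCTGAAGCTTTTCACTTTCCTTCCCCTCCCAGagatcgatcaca
An ag, the usual end of an intron, precedes both exon starts. The number of bases omitted is not a multiple of 3, so the reading frame shifts in the shorter model. The assignment of reads to either transcript was made by Cuffdiff and was not tested here, as the FPKM hold no reads.

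For each amino acid with a separate enzyme in each compartment, the mRNAs were set against each other, which gave 17 pairs with *Eprs* set against both *Ears2* and *Pars2* and with *Fars2* set against both *Farsa* and *Farsb*. The cytosolic mRNA was the higher in 17 of 17 pairs in pre-pro-B and in 16 of 17 in pro-B cells. The exception was isoleucine, where *Iars* over *Iars2* was 1.43 in pre-pro-B and 0.890 in pro-B cells. The ratios covered a wide range, from 1.43 to 41.4 in pre-pro-B cells, the highest being *Eprs* over *Ears2*, which was 97.2 in pro-B cells. For leucine and threonine the ratio narrowed, from 14.0 to 6.06 for *Lars* over *Lars2* and from 3.15 to 1.15 for *Tars* over *Tars2*. For valine, tryptophan and serine it widened, from 7.19 to 13.3, from 2.93 to 5.83 and from 13.0 to 20.1. The median ratio was 2.93 in pre-pro-B and 5.83 in pro-B cells, but its size and direction depended on how *Yars2*, described above, was counted. Over the 16 pairs without tyrosine it was 3.04 and 4.21. With non-coding transcripts added, the tyrosine pair was at 1.96 and 1.83 and the median over 17 pairs was 2.93 and 2.58, so that the order turned.

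**Figure D4:**
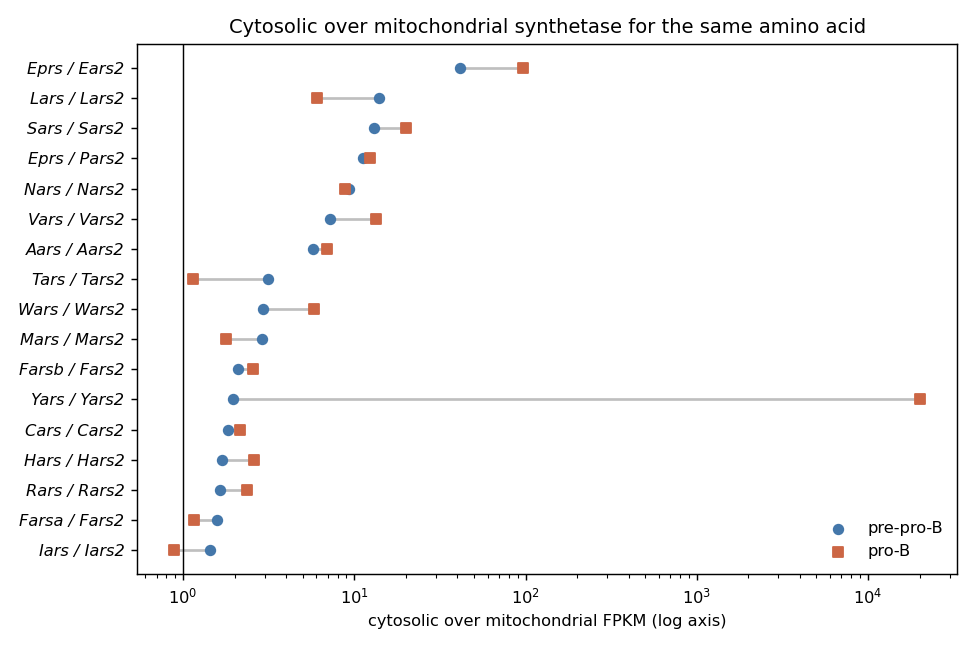
Cytosolic over mitochondrial FPKM (log axis) for the synthetases of the same amino acid in the pre-pro-B (circles) and the pro-B library (squares), 17 pairs, with a vertical line at equal levels. All points but *Iars* over *Iars2* in pro-B cells (0.890) lie to the right of the line, and the point at the far right is the tyrosine pair, in which coding *Yars2* was near 0.

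The way the enzymes are built or held did not separate them by more than a small step. The 8 synthetases of the multisynthetase complex had a median log2 difference of 0.20 and the 12 free cytosolic ones 0.24. The structural classes differ in the fold of the catalytic domain. The 9 class I genes had a median of 0.07 with 0 higher, and the 10 class II genes 0.34 with 2 higher. *Eprs*, with a log2 difference of 0.66, was counted in neither class. All 3 scaffold genes of the complex had positive differences. *Aimp1* had an FPKM of 43.9 and 73.0, a log2 difference of 0.72, *Aimp2* had 10.0 and 14.4, and *Eef1e1* had 31.1 and 42.2.

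The synthetase genes known to respond to Atf4 had a median close to that of the others. It was 0.14 over the 13 genes of that list and 0.21 over the other 7 cytosolic genes. *Atf4* itself was at 104 FPKM in the pre-pro-B and 153 in the pro-B library, a log2 difference of 0.55. Of 30 genes of the pathway other than synthetases, *Atf4* included, 7 were higher and 3 lower, against 20.1% and 29.8% of background genes. The median over the 30 was 0.08. *Cth*, an enzyme of cysteine synthesis, had 0.528 and 14.6, and *Asns*, asparagine synthetase, had 19.8 and 51.7. *Nupr1*, a stress-induced chromatin protein, had 1.58 and 6.09, and *Atf3*, a transcription factor of the same family as Atf4, had 0.0106 and 1.29. Each of these exceeded its pre-pro-B level. The 3 lower genes were the amino acid transporters *Slc7a1*, with 14.3 and 6.11, and *Slc1a5*, with 21.2 and 10.9, and *Xpot*, an exporter of tRNA, with 24.4 and 14.0.

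Promoters were searched for the core of the element that Atf4 binds with a C/EBP partner, TGATGNAA, on both strands from 250 bases before to 50 bases after the start site, in RefSeq promoters of GRCm38.p6. The motif was present in 3.97% of 32851 promoters, counted per promoter. Counted per gene, over all promoters of the gene, it was present in 5 of the 27 synthetase genes that had an entry, or 18.5%. These shares are of unlike units and are not directly comparable. All 5 genes with the motif were cytosolic genes of the Atf4 list, in which 8 genes had an entry. The 5 other cytosolic and the 14 mitochondrial genes with an entry held 0 matches. No entry was found for *Cars*, *Hars*, *Lars*, *Nars*, *Rars*, *Vars*, *Wars*, *Hars2* and *Pars2*. A match in each gene is shown in a window of 30 bases on the strand of the gene, since it is the feature these genes share, with the motif in capitals.
Yars, chr4:129189895-129189924, plus strand: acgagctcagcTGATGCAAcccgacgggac
Gars, chr6:55037960-55037989, plus strand: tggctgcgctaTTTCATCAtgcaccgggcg
Aars, chr8:111033840-111033869, plus strand: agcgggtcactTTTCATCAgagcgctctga
Iars, chr13:49682126-49682155, plus strand: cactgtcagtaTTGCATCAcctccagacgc
Tars, chr15:11399655-11399684, minus strand: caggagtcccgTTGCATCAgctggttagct
In *Yars* the motif lay on the strand of the gene and in the other 4 genes on the opposite strand. The match in *Gars* began 30 bases before the start site and that in *Tars* 15 bases before. A match is a description of letters and no proof of binding. The genes that carry it differed both ways, with log2 differences of 0.64 for *Aars*, 0.51 for *Gars*, -0.02 for *Yars*, -0.43 for *Tars* and -0.49 for *Iars*.

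Many synthetase genes share their start region with a gene on the opposite strand. Of the 36, 10 (27.8%) had a protein-coding neighbour on the other strand with a start site within 1000 bases, against 17.1% of 9332 background genes found by name in the mm9 annotation. The histidyl genes *Hars* and *Hars2*, for the cytosol and the mitochondrion, lie on opposite strands and overlap at their starts. Their start sites are 197 bases apart, and their log2 differences were 0.46 and -0.13. *Rars2* lies 13 bases from *Orc3*, a subunit of the origin recognition complex, with differences of -0.29 and 0.42. *Sars2* lies 171 bases from *Mrps12*, a mitochondrial ribosomal protein, with differences of -0.39 and -1.63. Among pairs with a measured neighbour, some differed in opposite directions and others in the same one, some of them by little. The share over all such pairs of the genome was not computed, so no direction is read from these pairs.

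Partners of charging, the enzymes that mature, export, edit or modify tRNA, lay close to the background. Of 23 such genes, 4 were higher and 8 lower in pro-B cells, with a median log2 difference of -0.20, where 20.1% of background genes were higher and 29.8% lower with a median of -0.14. *Elac1*, which trims the end of tRNA precursors, had an FPKM of 5.38 and 1.09, and *Mtfmt*, which formylates the initiator tRNA of mitochondria, had 12.8 and 5.35. The amidotransferase that makes glutaminyl tRNA in mitochondria, in place of a synthetase, was uneven. Its subunits were *Qrsl1* with 3.76 and 10.0, *Gatc* with 10.2 and 4.39, and *Gatb* with 5.07 and 4.62.

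The elongation factors that carry charged tRNA to the ribosome had a median of -0.44 over 5 cytosolic genes. *Eef1a1*, *Eef1b2* and *Eef2* lay far above every synthetase, while *Eef1d* and *Eef1g* lay within the synthetase range. *Eef1g*, a subunit of the exchange factor, had 110 and 61.4 and was the only one lower by 1.5-fold, and *Eef1a1*, the carrier of charged tRNA itself, had 1744 and 1283. Copies elsewhere in mm9 matched 54.2% of the stretches of *Eef1g* and 47.6% of those of *Eef1a1*, which makes their levels uncertain. The 4 mitochondrial elongation factors had a median of 0.12, and 0 of them were higher or lower, although 59.5% of the stretches of *Tufm* matched elsewhere.

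**Figure D5:**
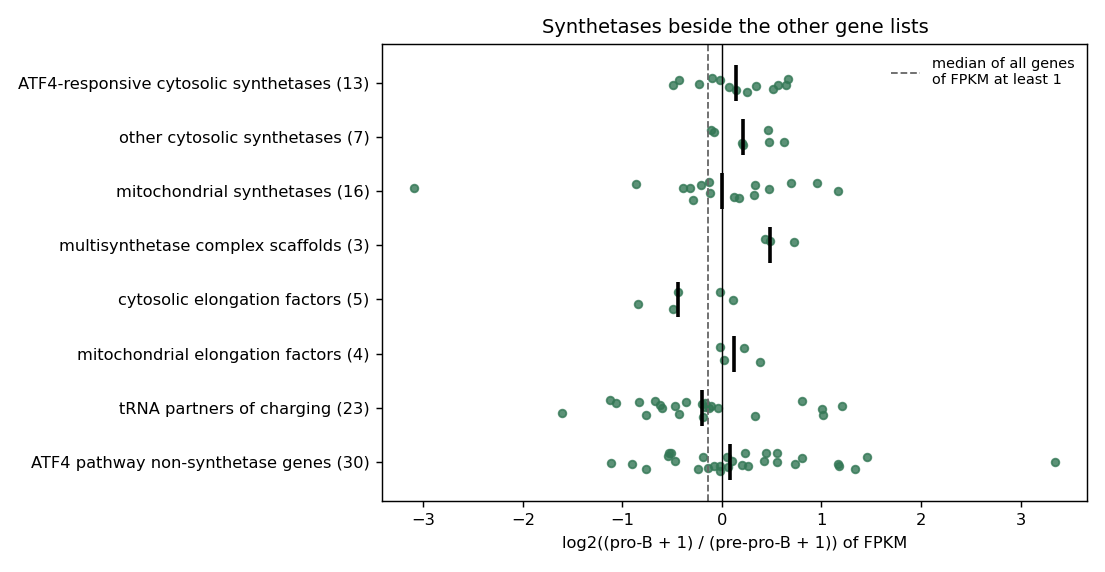
Log2 of (pro-B FPKM + 1) over (pre-pro-B FPKM + 1) for each gene of 8 lists, with the number of genes in brackets, a vertical bar at the median of each list and a dashed line at the median of all background genes (-0.14). Cytosolic synthetases and scaffolds sit to the right of the dashed line for the most part, and tRNA partners and cytosolic elongation factors have medians of -0.20 and -0.44.

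*Wars*, which interferon gamma induces in many cells, was compared with other genes of that response. Of 12 such genes, 8 of which reached 1 FPKM in a library, 2 were higher and 3 lower by 1.5-fold. Of background genes 20.1% were higher and 29.8% lower. *Irf1* had an FPKM of 30.0 and 9.54, *Socs1* 6.41 and 2.30, and *Gbp2* 0.983 and 2.80. *Wars* differed little, with its main transcript carrying 69.6% of the level in pre-pro-B and 77.3% in pro-B cells.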

How the data were processed

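Total RNA depleted of ribosomal RNA was sequenced by the authors from 1 library per cell type, as strand-specific single-end reads of 97 bases at about 90000000 reads per library per the labels. The authors aligned reads to mm9 with TopHat (1.5 in the submitters' processing notes) and deposited an FPKM for each of 30485 RefSeq transcripts, with limits of a 95% interval and a status, from Cuffdiff 2.1.1. FPKM hold no counts, so the depth behind a value is unknown and no floor is given. The authors' table of differential tests (fold changes, p-values and q-values, with 2 columns of per-sample values) was not used. Sums and medians below rest on FPKM that Cuffdiff did not scale between the libraries.

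Of 26968 coding (NM) transcripts, 26555 were given a symbol through a RefSeq gene table of GRCm38, used for names only, and their FPKM were summed per gene. Coordinates are those of mm9, except promoters, which are RefSeq sequences of GRCm38.p6. All 49 coding transcripts of the synthetases had status OK. Some transcripts shared a Cuffdiff locus with other genes (*Aars* with *Exosc6*, *Mars* with *Ddit3*, *Yars* with *C77080*, *Iars2* with *Rab3gap2* and small RNAs). Both FPKM are given for every member, and intervals and transcripts for members past 1.5-fold and for the highest and lowest of each compartment, while other lists give up to 4 genes by largest difference, beside the gene the list is named after. *Gatb*, *Rars2* with its neighbour, *Farsa*, *Eef1a1*, *Slc7a1*, *Slc1a5* and *Xpot* were added after their values were seen. The members and lists were chosen with earlier results of these data known. Libraries are not replicated, so values compare 2 libraries and not the conditions. Genomic copies were sought with minimap2 2.31. Python 3.11.15, pandas 2.3.3, numpy 2.4.6 and matplotlib 3.10.9 were used. On simulated data without noise the fold counts found 200 of 200 planted changes and called 0 of 9832 unchanged genes. This checked the counting alone and gives no rate of false calls between libraries. Other pseudocounts, scalings, filters, thresholds and transcript choices were tried, and their effect is given at the end. Some values, with an alternative for the compartment sums, are not reported here.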

Additional observations from a re-analysis of the deposited data

How the results depend on the processing

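Of 287 repeated member differences, 278 kept their side of the 1.5-fold limit. Many of these repeats could not differ from the reported value, so the count overstates how stable the differences were. All coding transcripts of the synthetases had status OK, and only *Yars2* had a non-coding transcript. The filter on level left the values of the kept genes unchanged. The small differences of *Mars*, *Yars*, *Farsa* and *Wars* changed sign or came to 0 under some alternatives, *Wars* to 0.04 on its most abundant transcript. Under TPM, *Aars* (0.57), *Eprs* (0.57) and *Farsb* (0.53) dropped under the 1.5-fold limit, leaving 0 cytosolic genes higher, and *Iars* (-0.59) passed it, giving 1 lower. Median-ratio scaling gave 5 cytosolic genes higher, with *Gars* (0.60) and *Vars* (0.65) added. These scalings shifted every log2 ratio, before a pseudocount, by -0.09 and 0.09. Without a pseudocount *Vars* passed the limit (0.59). *Tars2* missed it (0.58) on its most abundant transcript. At a log2 limit of 0.32 in place of 0.58, 8 cytosolic and 5 mitochondrial genes were higher and 2 cytosolic and 3 mitochondrial genes lower, and at 2-fold 0 cytosolic and 1 mitochondrial gene were higher and 1 mitochondrial gene lower. Members past 2-fold, 2 as reported, numbered 4 with a pseudocount of 0.1 and 4 with none, 1 among genes that reached 1 FPKM in each library, and 1 with non-coding transcripts summed too. Mitochondrial genes lower by 1.5-fold numbered 1 under that requirement, 1 without *Yars2* and 1 with non-coding transcripts, which turned *Yars2* to 0.07. The mitochondrial median was 0.12 under that requirement and 0.12 without *Yars2*. The median ratio of the pairs in pro-B cells, 5.83 as reported, was 2.58 with non-coding transcripts and 4.21 without *Yars2*. The alternatives with non-coding transcripts and without *Yars2* were chosen after seeing the data.

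No paired analysis was possible because each cell type had 1 library. Library spread and the depth behind each value could not be estimated.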
